A study of Bos indicus with 6 samples.

Results

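The genes described here encode the contractile apparatus of smooth muscle and the plaques that tie it to the cell surface, measured in the isthmus of the bovine oviduct. They were chosen as a list of 36 gene symbols, and every entry of the deposited table with a listed symbol was taken. Of the 36 symbols, 34 were found, on 35 of the 24616 entries of the table, because MYL9 stood on 2 entries (ENSBTAG00000011473 and ENSBTAG00000016024), which are reported apart and as uncertain, since reads could be split between them. No entry carried the symbols ACTG2 or MYOCD, and these genes were not analysed here. All 35 entries passed the filter on low values, and the lowest member value in any library rested on 33 reads.

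Smooth muscle contracts when calcium-bound calmodulin activates myosin light chain kinase, which phosphorylates the regulatory light chain and lets myosin pull on actin filaments wrapped with tropomyosin, calponin and caldesmon. Myosin phosphatase reverses this step, and RhoA with its kinases slows the phosphatase. Force is carried to the membrane by dense plaques of vinculin, talin, filamin and alpha-actinin, and many of these genes are transcribed under serum response factor with its cofactor myocardin. In the isthmus, the narrow part of the oviduct next to the uterus, a thick muscle coat surrounds the mucosa and is known for its part in the transport of gametes and embryos.

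Whole tissue of the isthmus on the side of the corpus luteum was taken on day 4 after GnRH from 6 multiparous Nelore cows, with 1 RNA-seq library per cow. All cows were synchronised with GnRH and prostaglandin F2 alpha, received a progesterone device with estradiol benzoate, and had prostaglandin again at device withdrawal, followed by GnRH. Only the LF/LCL cows had a further prostaglandin injection when the device was inserted. In the LF/LCL group (large follicle and large corpus luteum, cows 617, 79 and 527) the device was withdrawn 42 h before GnRH, and in the SF/SCL group (small follicle and small corpus luteum, cows 856, 489215 and 97) 30 h before GnRH. The groups thus differed in both the extra prostaglandin and the time of device withdrawal, which cannot be told apart here, and the sequenced animals had been picked as those at the far ends of a ranking, so that they stand for extremes and not for the average of each treatment. The comparison asked which transcripts of the oviduct differ between these periovulatory endocrine settings.

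The values are normalized counts, that is, reads per gene divided by the size factor of the library, and they compare libraries for a gene but not genes with each other, since gene length was not taken into account. The libraries held 23899117 to 34193164 counted reads. SF/SCL cow 489215 stood apart. Its normalized values summed to 33913700, against 25901100 to 26900100 in the other cows, and it was the highest of the 6 libraries in 36.7% of the genes tested and the lowest in 35.7%. In the mapping counts of the paper, uniquely mapped reads were a smaller part of the mapped reads in this cow than in the others. Whether this difference or transcript length bears on the values of this cow was not tested. Results are therefore given with and without this cow.

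The contractile and adhesion genes made up about the same share of the reads in the LF/LCL cows and in cow 489215, and a lower share in SF/SCL cows 856 and 97. The members held 6.53%, 6.23% and 6.06% of the reads of LF/LCL cows 617, 79 and 527. They held 3.18% in SF/SCL cow 856, 3.47% in SF/SCL cow 97 and 6.94% in SF/SCL cow 489215. The shares of cows 856 and 97 lay below every other library, and that of cow 489215 lay above every LF/LCL library, so that the groups overlapped. In whole tissue, fewer smooth muscle cells and less RNA per muscle cell cannot be told apart.

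**Figure D1:**
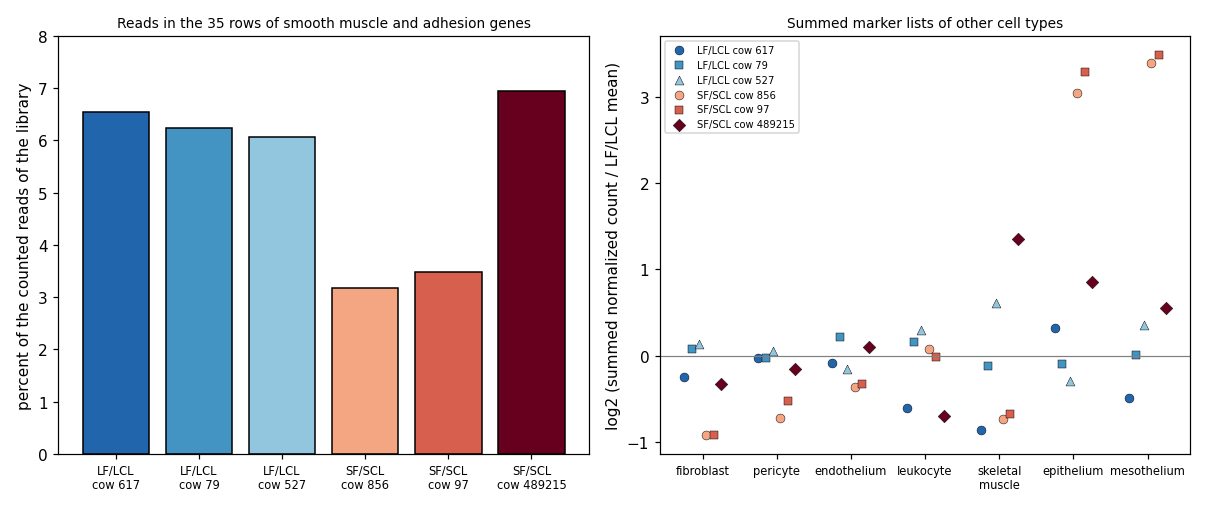
Left, percent of each library's counted reads that fell on the 35 entries of smooth muscle and adhesion genes (bars from 0, 1 bar per cow). Right, log2 of the summed normalized count of 7 marker lists of other cell types in each cow over the mean of the LF/LCL cows. The share is 3.18% and 3.47% in cows 856 and 97 and 6.06% to 6.94% in the other 4 cows, and the epithelium and mesothelium sums are highest in cows 856 and 97, where OVGP1 and MSLN carry them.

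Entry by entry, cows 856 and 97 were both below all 3 LF/LCL cows in 31 of the 35 entries, against 25% of the genes tested, and above all 3 in 0 of the 35, against 26.9%. Relative to the LF/LCL mean, the median member was at a log2 value of -0.92 in cow 856 and -0.78 in cow 97. In cow 489215 the median was 0.35, but its members ranged from -2.81 to 1.17. This cow was the highest of all 6 libraries in 18 of the 35 entries, against the 36.7% of genes tested given above, and the lowest in 10. The spread over members (SD of the log2 values) was 1.03 in cow 489215, 0.40 in cow 856, 0.35 in cow 97 and 0.12 to 0.13 in the LF/LCL cows. Each LF/LCL cow is part of the mean it is set against, which narrows its spread, so that the groups cannot be compared in this measure. When the reads were instead divided by the total of each library, cow 489215 was the highest in 15 entries, against 22.2% of the genes tested, and the lowest in 11, against 47.7%.

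**Figure D2:**
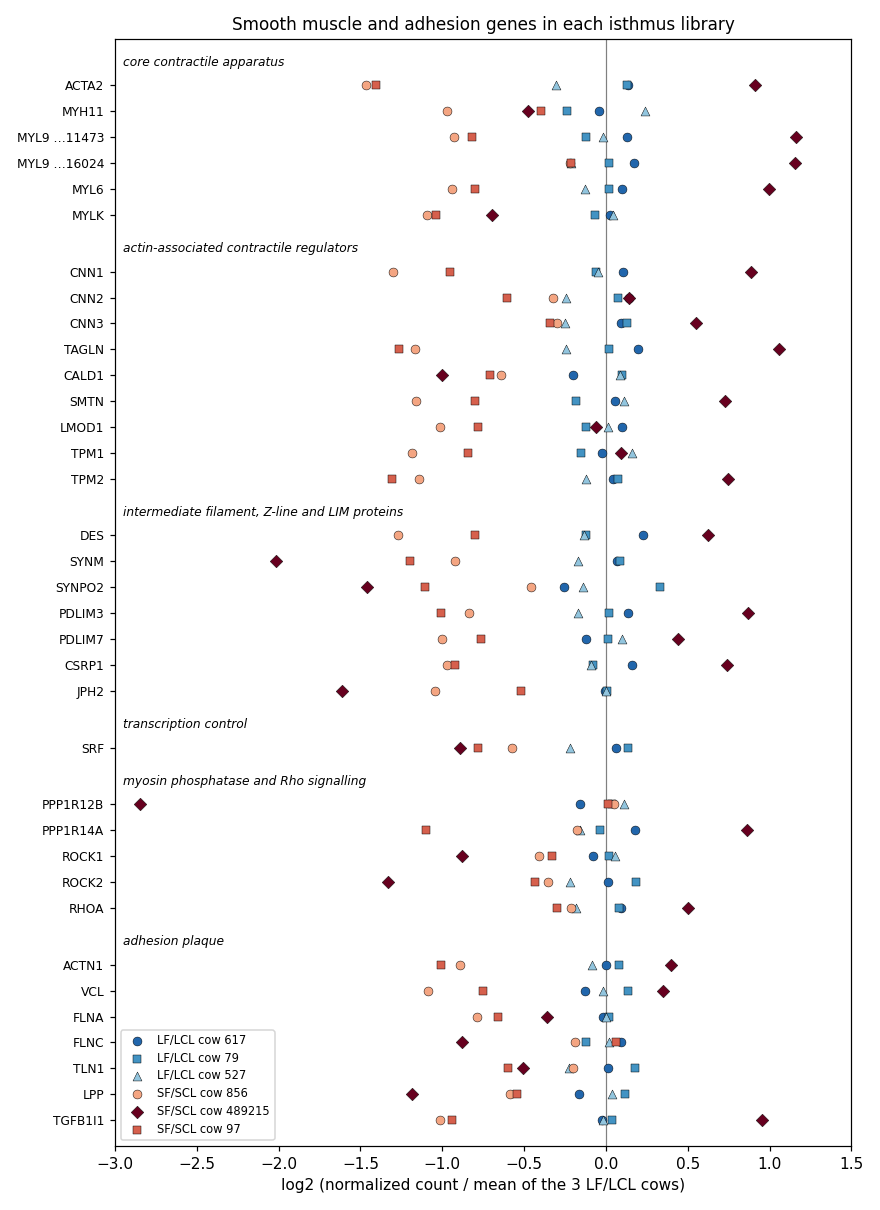
Normalized count of each of the 35 entries in each cow as log2 over the mean of the 3 LF/LCL cows (0 on the horizontal axis), with the entries grouped by role. Cows 856 and 97 lie to the left of the LF/LCL cows in 31 entries, while cow 489215 lies furthest right in 18 and furthest left in 10.

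Over all 6 libraries no member passed the threshold of a Benjamini-Hochberg adjusted p-value under 0.05 in limma, where 0% of the 15387 genes tested were called and the smallest adjusted p-value was 0.351. At an unadjusted p-value under 0.05, 9 of 35 entries were lower in SF/SCL (MYLK, CALD1, SYNM, SYNPO2, JPH2, SRF, ROCK1, FLNA and LPP), against 4.48% of the genes tested, and 0 were higher, against 4.19%. The edgeR quasi-likelihood test called 0 members and had 8 at an unadjusted p-value under 0.05, all lower in SF/SCL, against 4.43%. DESeq2 called 4 members lower in SF/SCL, against 1.34% of the genes tested, namely MYLK, SYNM, CALD1 and SRF. The log2 fold change of SF/SCL over LF/LCL was below 0 in 33 of 35 entries (51.4% of the genes tested), with a median of -0.49 over the members and -0.02 over all genes tested.

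Without cow 489215, limma called 24 of the 35 entries lower in SF/SCL and 0 higher, where 7.92% of 15495 genes tested were called lower and 10.3% higher. The edgeR quasi-likelihood test also called 24 (7.63% of the genes tested) and DESeq2 28 (11.8%), which were the 24 of limma with MYH11, CNN2, SYNPO2 and ROCK2 added. At an unadjusted p-value under 0.05 the entries lower in SF/SCL were 28 in limma, 29 in edgeR and 31 in DESeq2, against 15.9%, 15.7% and 16.6% of the genes tested. The median log2 fold change was then -0.87 over the members and -0.000916 over all genes tested. These fits compare 2 SF/SCL cows with 3 LF/LCL cows.

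**Figure D3:**
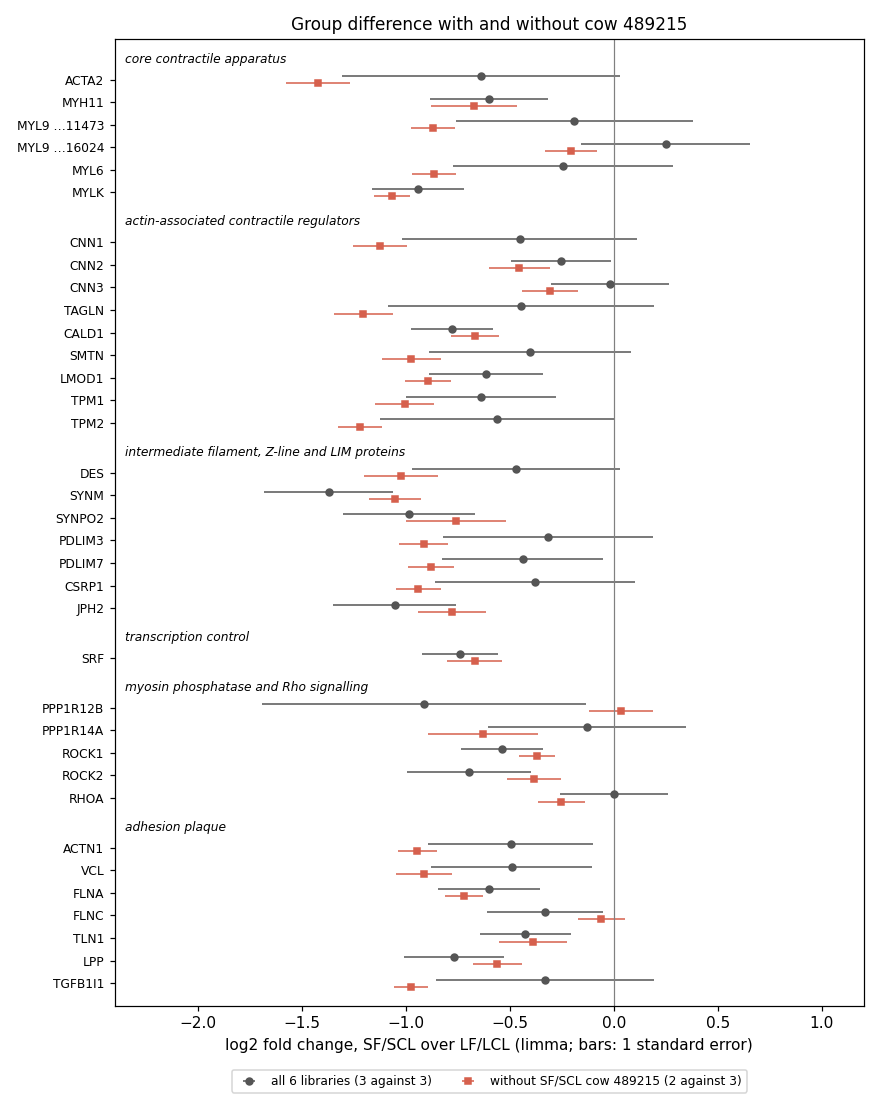
Log2 fold change of SF/SCL over LF/LCL for each entry, from limma on log2(value + 1), with bars of 1 standard error, over all 6 libraries (grey circles) and without cow 489215 (red squares). Without that cow the estimates of most contractile genes move to the left and their bars shorten, while those of PPP1R12B and FLNC move to near 0.

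Among the transcripts of the core contractile apparatus, those of the actin and the light chains were high in cow 489215. Those of myosin heavy chain and myosin light chain kinase were below the LF/LCL cows in all SF/SCL cows. ACTA2, smooth muscle alpha-actin of the thin filament, had normalized counts of 311661, 309608 and 229408 in LF/LCL cows 617, 79 and 527, and of 102587, 106962 and 533926 in SF/SCL cows 856, 97 and 489215. Cows 856 and 97 were at 36.9% of the LF/LCL mean and cow 489215 at 1.88 times that mean, so that the lowest and the highest libraries of the series belonged to the same group. The log2 fold change was -0.64 ± 0.67 (SE, n = 3 against 3, limma adjusted p = 0.864) and without cow 489215 it was -1.42 ± 0.15, the lowest of all members, and was called. MYH11, the smooth muscle myosin heavy chain that moves along actin, had 157535, 137623 and 191119 in LF/LCL cows 617, 79 and 527 and 82654, 122911 and 116653 in SF/SCL cows 856, 97 and 489215. Every SF/SCL cow was below every LF/LCL cow, with cow 489215 between the other SF/SCL cows. The log2 fold change of MYH11 was -0.60 ± 0.28 (SE, limma adjusted p = 0.635), and without cow 489215 it was called in DESeq2 but not in limma (-0.67 ± 0.21) or edgeR.

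MYLK, the kinase that starts contraction by phosphorylating the light chain, had normalized counts of 78860.5, 74149 and 79842 in LF/LCL cows 617, 79 and 527 and of 36320, 37761 and 47882 in SF/SCL cows 856, 97 and 489215. The groups did not overlap, and cow 489215 was nearer to its own group than to the LF/LCL cows. Its log2 fold change was -0.94 ± 0.22 (SE, limma adjusted p = 0.381), and it was called without cow 489215 (-1.07 ± 0.09). The MYL9 entry ENSBTAG00000011473, for the regulatory light chain that MYLK phosphorylates, had 69431, 58412 and 62606 in LF/LCL cows 617, 79 and 527 and 33318, 35992 and 142000 in SF/SCL cows 856, 97 and 489215. Cows 856 and 97 were below and cow 489215 far above the LF/LCL cows, with a log2 fold change of -0.19 ± 0.57 over 6 libraries, which was positive under 5 other settings, and -0.87 ± 0.11 (called) without that cow. In the MYL9 entry ENSBTAG00000016024, cows 856 and 97 were at 86.0% of the LF/LCL mean and met the LF/LCL range, cow 489215 was at 2.23 times that mean, and no call was made in limma with or without that cow. MYL6, the essential light chain, had 55209 to 64549 in the LF/LCL cows, 31409 and 34587 in cows 856 and 97 and 120309 in cow 489215, a pattern like that of the first MYL9 entry, and was called without cow 489215 (-0.87 ± 0.11).

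Transcripts for the proteins that bind and steady the thin filament were below every LF/LCL cow in cows 856 and 97 for all 9 genes. In cow 489215 these transcripts split. TAGLN, or transgelin, an actin-binding protein used as an early marker of smooth muscle, had 148702, 131622 and 109598 in LF/LCL cows 617, 79 and 527 and 57841, 54053 and 270402 in SF/SCL cows 856, 97 and 489215. Cow 489215 was at 2.08 times and the other SF/SCL cows at 43.0% of the LF/LCL mean. This gave a log2 fold change of -0.45 ± 0.64 (SE, limma adjusted p = 0.898), and -1.21 ± 0.14 (called) without cow 489215. TPM2, a tropomyosin that lies along the actin filament, had 136638 to 155966 in the LF/LCL cows, 67265 and 60017 in cows 856 and 97 and 249455 in cow 489215. CNN1, the calponin of differentiated smooth muscle, had 52960 to 59323 in the LF/LCL cows, 22369 and 28524 in cows 856 and 97 and 101922 in cow 489215. Both genes followed the order of TAGLN and were called without cow 489215, at log2 fold changes of -1.22 ± 0.11 for TPM2 and -1.13 ± 0.13 for CNN1. SMTN, or smoothelin, a marker of contractile smooth muscle, was likewise highest in cow 489215 (24243 against 12894 to 15800.5 in the LF/LCL cows) and low in cows 856 and 97 (6539 and 8400.3).

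CALD1, or caldesmon, which holds back myosin at the thin filament, did not follow the calponin and transgelin genes. It had 14110, 17332 and 17207 in LF/LCL cows 617, 79 and 527 and 10413, 9909 and 8096 in SF/SCL cows 856, 97 and 489215. All SF/SCL cows lay below all LF/LCL cows, and cow 489215 was the lowest. CALD1 had a log2 fold change of -0.78 ± 0.20 (SE, limma adjusted p = 0.395), and -0.67 ± 0.12 (called) without cow 489215. TPM1, a second tropomyosin gene, and LMOD1, a leiomodin that starts actin filaments, were within the LF/LCL range in cow 489215, at 107% and 95.7% of the LF/LCL mean. In cows 856 and 97 they were at 49.9% and 53.9% of that mean, and both were called without cow 489215 (-1.01 ± 0.14 for TPM1 and -0.89 ± 0.11 for LMOD1). The calponins CNN2 and CNN3, which are found in many cell types, were at 72.8% and 80.2% of the LF/LCL mean in cows 856 and 97, and neither was called in limma with or without cow 489215.

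The genes of intermediate filaments, Z-line and LIM proteins also split, and here the divergence of cow 489215 ran between genes of the same filament. DES, or desmin, the intermediate filament of muscle, had 121698, 95738 and 95008 in LF/LCL cows 617, 79 and 527 and 43219, 59825 and 160319 in SF/SCL cows 856, 97 and 489215. Cow 489215 was the highest library and cows 856 and 97 the lowest, and DES was called only in fits without cow 489215 among the limma, edgeR and DESeq2 fits run (limma -1.02 ± 0.18). SYNM, or synemin, which builds into filaments with desmin, had 20036, 20341 and 17035 in LF/LCL cows 617, 79 and 527 and 10112, 8346 and 4730 in SF/SCL cows 856, 97 and 489215. The groups did not overlap and cow 489215, at 24.7% of the LF/LCL mean, was the lowest library. SYNM had the lowest log2 fold change of the members over 6 libraries, -1.37 ± 0.31 (SE, limma adjusted p = 0.372), and was called without cow 489215 (-1.05 ± 0.13).

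SYNPO2, which cross-links actin at Z-lines and dense bodies, and JPH2, or junctophilin, which joins the plasma membrane to the calcium store, resembled SYNM. SYNPO2 had 21782, 32631 and 23583 in LF/LCL cows 617, 79 and 527 and 18914, 12069 and 9453 in SF/SCL cows 856, 97 and 489215. JPH2 had 1256, 1266 and 1263 in LF/LCL cows 617, 79 and 527 and 613, 881 and 413 in SF/SCL cows 856, 97 and 489215. In both genes the groups did not overlap and cow 489215 was the lowest, and JPH2 varied little among the LF/LCL cows (SD 5.23). Their limma adjusted p-values were 0.454 for SYNPO2 (log2 fold change -0.99 ± 0.32) and 0.415 for JPH2 (-1.06 ± 0.30), and without cow 489215 limma called JPH2 and not SYNPO2. PDLIM3, PDLIM7 and CSRP1, adaptors with LIM domains that sit on actin bundles, were at 51.9% to 54.4% of the LF/LCL mean in cows 856 and 97 and at 1.36 to 1.83 times that mean in cow 489215. All 3 were called without cow 489215, at log2 fold changes of -0.92 ± 0.12 (PDLIM3), -0.88 ± 0.11 (PDLIM7) and -0.94 ± 0.11 (CSRP1).

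SRF, the transcription factor that binds the promoters of many of these genes, was lower in every SF/SCL cow. It had 3900, 4087 and 3201 in LF/LCL cows 617, 79 and 527 and 2501, 2172 and 2012 in SF/SCL cows 856, 97 and 489215. The groups did not overlap, and cow 489215, in which ACTA2 and TAGLN were highest, had the lowest SRF value. For SRF, the log2 fold change was -0.74 ± 0.18 (SE, limma adjusted p = 0.381), and -0.67 ± 0.13 (called) without cow 489215. The promoters of the members were not analysed here.

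The genes that set the balance between kinase and phosphatase were at 67.7% to 102% of the LF/LCL mean in cows 856 and 97, and limma called 1 of the 5 without cow 489215. ROCK1, a kinase that acts below RhoA on myosin phosphatase, had 4400.15, 4702 and 4839 in LF/LCL cows 617, 79 and 527 and 3494, 3695 and 2531 in SF/SCL cows 856, 97 and 489215. ROCK2, its close relative, had 4235, 4765 and 3611 in LF/LCL cows 617, 79 and 527 and 3293, 3108 and 1672 in SF/SCL cows 856, 97 and 489215. Neither kinase showed overlap between the groups, and cow 489215 was the lowest in both. The log2 fold changes were -0.54 ± 0.20 for ROCK1 (SE, limma adjusted p = 0.507) and -0.70 ± 0.30 for ROCK2 (limma adjusted p = 0.597), and without cow 489215 they were -0.37 ± 0.09 (called) and -0.38 ± 0.13 (not called).

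RHOA, the small GTPase that turns these kinases on, went the other way in cow 489215. It had 8342 to 10080.4 in the LF/LCL cows, 8156 and 7693 in cows 856 and 97 and 13399 in cow 489215, and its log2 fold change was 0.00 ± 0.26 over 6 libraries and -0.25 ± 0.11 (not called in limma) without that cow. PPP1R14A, the inhibitor of myosin phosphatase also known as CPI-17, had 1254 to 1579 in the LF/LCL cows, 1239 and 654 in cows 856 and 97 and 2539 in cow 489215. PPP1R12B, a targeting subunit of myosin phosphatase, had 284, 324 and 341 in LF/LCL cows 617, 79 and 527 and 327, 319 and 43.9 in SF/SCL cows 856, 97 and 489215. Only cow 489215 stood away from the LF/LCL range in PPP1R12B, at 13.9% of the LF/LCL mean, the lowest such share among the members. Its log2 fold change was -0.92 ± 0.78 over 6 libraries and 0.03 ± 0.16 without that cow, and limma called neither.

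In the adhesion plaques, the actin cross-linker FLNA and the adaptor LPP separated the groups, while the other plaque genes overlapped. FLNA, or filamin A, had 184511, 189471 and 186803 in LF/LCL cows 617, 79 and 527 and 108428, 118492 and 145415 in SF/SCL cows 856, 97 and 489215. The LF/LCL cows lay close together, and all SF/SCL cows lay below them, with cow 489215 the nearest. FLNA had a log2 fold change of -0.60 ± 0.25 (SE, limma adjusted p = 0.568), and -0.72 ± 0.09 (called) without cow 489215. FLNC, or filamin C, had 17017, 14678 and 16139 in LF/LCL cows 617, 79 and 527 and 14014, 16617 and 8670 in SF/SCL cows 856, 97 and 489215. Unlike FLNA, it lay close to the LF/LCL range in cows 856 and 97 and was lowest in cow 489215, with log2 fold changes of -0.33 ± 0.28 over 6 libraries and -0.06 ± 0.11 without that cow.

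LPP, an adaptor with LIM domains in focal adhesions of smooth muscle, had 1049, 1273 and 1206 in LF/LCL cows 617, 79 and 527 and 783, 805 and 517 in SF/SCL cows 856, 97 and 489215. The groups did not overlap, and its log2 fold change was -0.77 ± 0.24 (SE, limma adjusted p = 0.448) and -0.56 ± 0.12 (called) without cow 489215. TGFB1I1, also known as Hic-5, a LIM protein that moves between plaques and the nucleus, had 5039, 5254 and 5066 in LF/LCL cows 617, 79 and 527 and 2539, 2668 and 9939 in SF/SCL cows 856, 97 and 489215. Cows 856 and 97 and cow 489215 thus lay on opposite sides of a tight LF/LCL group, and TGFB1I1 was called without cow 489215 (-0.98 ± 0.08). ACTN1, or alpha-actinin, and VCL, or vinculin, were at 51.9% and 53.3% of the LF/LCL mean in cows 856 and 97 and at 1.32 and 1.27 times that mean in cow 489215. TLN1, or talin, which couples integrins to vinculin, overlapped between the groups, with 23268 to 30818 in the LF/LCL cows and 17964 to 23615 in the SF/SCL cows, and was not called in limma with or without cow 489215 (-0.43 ± 0.22 over 6 libraries).

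**Figure D4:**
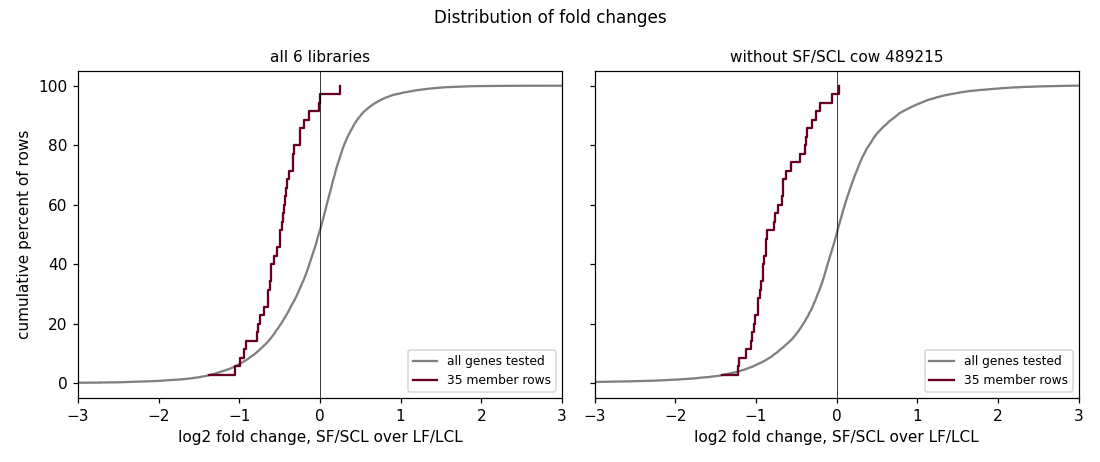
Cumulative percent of entries (vertical axis) at or below each log2 fold change of SF/SCL over LF/LCL (horizontal axis, limma), for all genes tested (grey) and for the 35 smooth muscle and adhesion entries (red), over all 6 libraries (left) and without cow 489215 (right). The median of the members is -0.49 on the left and -0.87 on the right, while all genes tested are centred near 0 in both.

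In all, the groups did not overlap in 11 of 35 entries, all lower in SF/SCL (MYH11, MYLK, CALD1, SYNM, SYNPO2, JPH2, SRF, ROCK1, ROCK2, FLNA and LPP), where 8.6% of the genes tested had all SF/SCL cows below all LF/LCL cows and 9.51% the reverse. In 8 of these 11 entries cow 489215 was the lowest library, MYH11, MYLK and FLNA being the exceptions. The 18 entries in which it was the highest were ACTA2, both MYL9 entries, MYL6, CNN1, CNN3, TAGLN, SMTN, TPM2, DES, PDLIM3, PDLIM7, CSRP1, PPP1R14A, RHOA, ACTN1, VCL and TGFB1I1.

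Other genes of the same pathways were read from lists with known roles. Of 18 tested genes enriched in smooth muscle, 5 were lower in SF/SCL at an unadjusted p-value under 0.05 and 0 higher, with a median log2 fold change of -0.47, and 13 were called lower without cow 489215 (median -0.76). ITGA8, an integrin subunit, had 4778, 5150 and 3700.45 in LF/LCL cows 617, 79 and 527 and 1937, 1651 and 1867 in SF/SCL cows 856, 97 and 489215. In this gene all SF/SCL cows, 489215 included, were alike and well below the LF/LCL cows (-1.31 ± 0.19, SE, limma adjusted p = 0.351). KCNMA1, the pore of the large potassium channel that relaxes smooth muscle (-1.03), DMPK, a kinase of muscle (-0.87), and PDE5A, which degrades cyclic GMP (-1.29), were the next by unadjusted p-value.

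Of 23 tested entries of other plaque genes, 4 were lower and 0 higher at an unadjusted p-value under 0.05 (ITGA9, PALLD, ITGA1 and BCAR1), with a median of -0.51, and 11 were called lower without cow 489215. The other contraction machinery, mostly of forms found in many cell types, was mixed, with a median of -0.19. Of its 21 tested entries, 1 was lower (PRKG1, the cyclic GMP-dependent kinase, -1.31). In the other direction, 2 were higher (MYL12B, a non-muscle light chain, 0.71, and TPM3, a tropomyosin, 0.71). Without cow 489215, 4 of these were called lower, both ACTB entries among them, and 2 higher. ACTB stood on ENSBTAG00000015441 (-1.77 without that cow) and ENSBTAG00000026199 (-0.63), which are as uncertain as the MYL9 entries. The first had 108542 to 168945 in the LF/LCL cows, 35559 and 49772 in cows 856 and 97 and 247619 in cow 489215, an order like that of ACTA2. Of 10 other regulators of SRF targets, 1 was lower (ELK3, a partner of SRF, -0.54), with a median of -0.30, and without cow 489215, 2 were called lower and 1 higher.

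Like every gene tested, the markers of other cell types did not pass the adjusted threshold in limma over all 6 libraries. Counts below are at an unadjusted p-value under 0.05. Fibroblast markers summed to 99935 to 130267 in the LF/LCL cows and 62614 to 94544 in the SF/SCL cows, and 3 of 8 (LUM, FBLN1 and PDGFRA) were lower. Pericyte markers summed to 20281 to 21586 in the LF/LCL cows and 12587 to 18623 in the SF/SCL cows, and 3 of 8 (ABCC9, RGS5 and PDGFRB) were lower. CSPG4 (0.13) and HIGD1B (0.05) had log2 fold changes above 0. MCAM, the most abundant of the list, had 7851 to 8410 in the LF/LCL cows. It had 4444 and 4969 in cows 856 and 97 and 12864 in cow 489215. The fibroblast and pericyte sums were lower in all SF/SCL cows. In each list 3 of 8 markers had every SF/SCL cow below every LF/LCL cow, against 8.6% of the genes tested. The median log2 fold changes were -0.60 for fibroblast and -0.56 for pericyte markers, beside -0.49 over the smooth muscle and adhesion entries. Without cow 489215 these medians were -0.79, -0.83 and -0.87. DCN, the most abundant fibroblast marker, overlapped (58982 in cow 489215 and 54810 in LF/LCL cow 617), as did PDGFRA (6353 and 5927).

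Epithelium markers summed to 32719.9 to 50322 in the LF/LCL cows and 72714 to 391886 in the SF/SCL cows, and 5 of 10 tested were higher, among them EPCAM (0.85), KRT8 (0.76) and KRT7 (1.68). Most of the sum in cows 856 and 97 came from OVGP1, the oviductal glycoprotein, which did not pass the filter. It had 271794 and 325158 in these cows, against 730 in cow 489215 and 287 to 1950 in the LF/LCL cows. Without OVGP1, a sum formed after the values were seen, the markers came to 30770 to 50035.5 in the LF/LCL cows and to 59041, 66728 and 71984 in cows 856, 97 and 489215. The sum of cow 489215 was then the highest, but the markers in this cow were mixed. Of the 10 tested, it was the highest library in 6 and the lowest in 2. These were FOXJ1 (2609, against 12042 and 11225 in cows 856 and 97) and PAX8 (469, against 1441 and 1437). EPCAM was higher in every SF/SCL cow, with 15871, 18854 and 20313 in cows 856, 97 and 489215 and 8530 to 12286 in the LF/LCL cows. ELF3 and CLDN4, of the same list, had log2 fold changes of -0.54 and -0.07, with ELF3 at 529 and 612 in cows 856 and 97, below its range of 773 to 2016 in the LF/LCL cows. The endothelium markers summed to 12673 to 16264 in the LF/LCL cows and 10950.1 to 15050 in the SF/SCL cows, and 1 of 7 was lower (CDH5, -0.87). Those of leukocytes summed to 2073 to 3879 and 1948 to 3333, and 0 of 8 were lower or higher. Both sums overlapped between the groups. Mesothelium markers summed to 1202 to 2167 in the LF/LCL cows and 2475 to 18928 in the SF/SCL cows, and 0 of 5 passed the filter over 6 libraries. MSLN, or mesothelin, carried this sum (17590 and 18098 in cows 856 and 97, 2299 in cow 489215 and 808 to 1871 in the LF/LCL cows). Without MSLN the sums overlapped (296 to 827 against 69.9 to 830.2). LRRN4, of the same list, was the reverse, at 175 to 412 in the LF/LCL cows and 3.80, 16.3 and 5.33 in cows 856, 97 and 489215, and limma called it lower without cow 489215 (-4.91). Of the skeletal muscle markers, which summed to 1259 to 3483 in the LF/LCL cows and 1372 to 5850 in the SF/SCL cows, MYOD1 was at 0 in all libraries and ACTA1 held most of the sum. Of 8 tested, 1 was higher (CKM, 1.55), at no more than 20.6 in any library. The part of these cell types in the values of the smooth muscle genes was not tested.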

How the data were processed

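The data were 6 poly(A) RNA-seq libraries of isthmus tissue, 1 per cow. The authors aligned filtered paired-end reads to the masked bovine genome with TopHat2 2.0.8 and Bowtie2 2.1.0, took the uniquely mapped reads of each Ensembl gene from HTSeq 0.5.4p2, and divided the counts by DESeq 1.12.1 size factors. Whether counting used the strand is not given in the sources used here. The deposited signal values are these normalized counts, and 100% of 147696 values gave whole reads (tolerance 0.05 read). Uniquely mapped reads leave near-identical copies uncertain.

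Groups came from the sample labels. Tests covered the 15387 of 24616 genes whose mean exceeded 5 and also exceeded the SD, and were made with limma 3.58.1 (trend and robust, R 4.3.3) on log2(value + 1), and p-values were adjusted by Benjamini-Hochberg over all genes tested, with a threshold of 0.05. A fold change on this scale understates that of low genes. On recovered reads, edgeR 4.0.16 and DESeq2 1.42.0 were alternatives, as were other scalings, filters and pseudocounts and each library left out. Other steps used Python 3.11.15. Scripts were tested on simulated data. The members and lists, and the attention to cow 489215, were chosen with earlier results of these data known. All members are described. Of the other lists, up to 4 genes at an unadjusted p-value under 0.05 are named, smallest p first. ACTB is named because its symbol stood on more than 1 entry. Of the cell type lists, some of the abundant markers, some that ran against their list and those at 0 are named as well. No positions are given, and sequences, promoters, the ampulla and qPCR were not analysed here.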

Additional observations from a re-analysis of the deposited data

How the results depend on the processing

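No paired analysis was possible because the groups share no cow numbers. The count of called members (0 in limma) was 4 in DESeq2 and 0 to 24 when each library was left out, with 24 without cow 489215 in limma, 24 in edgeR and 28 in DESeq2. At an unadjusted p-value under 0.05, 9 members became 5 to 28 (5 without LF/LCL cow 79, 28 without cow 489215), and 29 in edgeR and 31 in DESeq2 without cow 489215. In limma, 1333 of 15387 genes tested passed this unadjusted threshold in either direction. These were 605 of 15343 without cow 79 and 5253 of 15495 without cow 489215. The median log2 fold change of the members was -0.87 to -0.28, and the entries without overlap were 11 to 31 (31 without cow 489215). The count without overlap cannot fall when a library is left out. Of the genes tested, 8.6% had all SF/SCL cows below all LF/LCL cows, and 25% had cows 856 and 97 below them. The reverse held for 9.51% and 26.9%. Leaving out cow 489215 thus raised these shares over all genes tested too, and not only among the members. Scaling by the library total in limma and the edgeR and DESeq2 fits without cow 489215 were added after seeing the data. Some fold changes turned sign. MYL9 (ENSBTAG00000011473) became 0.11 in edgeR with TMM and 0.15 in edgeR with DESeq2 size factors and in DESeq2, and MYL6 became 0.0024 and 0.039. PPP1R14A became 0.041 with TMM, 0.075 in edgeR with size factors and 0.076 in DESeq2, and CNN3 0.032 in both of the latter. RHOA became -0.061 in edgeR with library size alone, -0.010 in limma after TMM, -0.089 in limma with the library total, and -0.26 without cow 489215 in edgeR and in DESeq2. Without that cow, MYL9 (ENSBTAG00000016024) became -0.22 in both and PPP1R12B 0.027 in edgeR and 0.023 in DESeq2. With each library left out in limma, log2 fold changes ran from -0.87 to 0.18 (MYL9, ENSBTAG00000011473), -0.21 to 0.48 (MYL9, ENSBTAG00000016024), -0.87 to 0.10 (MYL6), -0.31 to 0.14 (CNN3), -0.92 to 0.023 (PDLIM3), -1.40 to 0.034 (PPP1R12B), -0.63 to 0.35 (PPP1R14A), -0.25 to 0.15 (RHOA) and -0.98 to 0.0087 (TGFB1I1). The cause was not tested.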

Other observations

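Ratios of tropomyosin genes were compared, a comparison made after their values were seen. Reads were counted per gene, so the forms made from 1 gene were not separated. The ratio of TPM1 to TPM3 counts was 8.55, 9.42 and 11.6 in LF/LCL cows 617, 79 and 527 and 3.50, 3.46 and 4.61 in SF/SCL cows 856, 97 and 489215. This ratio was lower in all SF/SCL cows, and it does not depend on the size factors, although its level depends on the lengths of both genes. The ratio of TPM2 to TPM3 counts also did not overlap, at 20.9 to 25.6 in the LF/LCL cows and 5.86 to 16.9 in the SF/SCL cows. TPM4, a further tropomyosin gene, was not higher in SF/SCL (log2 fold change -0.19). The ratio of TPM2 to TPM4 counts overlapped, at 5.26 to 6.52 in the LF/LCL cows and 3.31, 4.09 and 7.12 in SF/SCL cows 856, 97 and 489215.

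The ratio of DES to SYNM counts, which depends on no size factor either, was 4.71 to 6.07 in the LF/LCL cows, 4.27 in cow 856, 7.17 in cow 97 and 33.9 in cow 489215. The ratio of FLNA to FLNC counts was 10.8 to 12.9 in the LF/LCL cows, 7.74 in cow 856, 7.13 in cow 97 and 16.8 in cow 489215. Of 13 such pairs computed, 3 had ratios that did not overlap between the groups, these 2 tropomyosin pairs and ROCK2 with RHOA.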
